A study of Mus musculus with 2 samples.

Results

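The clustered protocadherins were followed in accessible chromatin of the mouse hippocampus. All protein-coding GENCODE M21 genes whose symbol begins with Pcdha, Pcdhb or Pcdhg were taken, which gave 57 of 21853 protein-coding genes: 14 in the alpha cluster, 22 in the beta cluster and 21 in the gamma cluster. In this annotation 2 gene identifiers of the alpha cluster (ENSMUSG00000007440.10 and ENSMUSG00000102206.5) carry the symbol Pcdha11, and both were counted. Pcdhgb8 is annotated as a polymorphic pseudogene and was not a member. DNase-seq, which sequences DNA ends cut by DNase I where chromatin is open, was done on tissue labelled layer of hippocampus from female B6CASTF1/J mice aged 2 months, which are F1 hybrids of the strains C57BL/6J and CAST/EiJ. The labels name no treatment, engineered allele or second condition. They give 1 group of 2 biological replicates with 1 library each, and both name the same donor record, so differences between the libraries may reflect technical spread alone.

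Protocadherins of these clusters are cadherin-like membrane proteins that neurons use to recognise their own branches and those of their neighbours. Each alpha and gamma gene has its own promoter and its own large variable exon, which is spliced to constant exons shared by its cluster, while beta genes consist of a single large exon without a constant part. The alternate genes are known to be switched on in different combinations from neuron to neuron, whereas the C-type genes at the end of the alpha and gamma clusters are expressed more evenly, and CTCF with cohesin is known to join variable promoters to distal enhancers.

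All members lie on the plus strand of chromosome 18 (mm10, GRCm38) within 912 kb. The alpha cluster spans chr18:36930184-37187661 (257 kb), the beta cluster chr18:37264938-37524479 (260 kb) and the gamma cluster chr18:37661793-37841873 (180 kb). Neighbouring start sites were a median of 7.32 kb apart in alpha, 7.76 kb in beta and 5.35 kb in gamma, so windows of 1 kb on either side of a start site were used as variable promoters. Each window was centred on the start site (TSS) of the protein-coding transcript with the longest coding sequence.

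The longer peak lists held 129779 peaks in replicate 1 and 71895 in replicate 2. The sources used here do not give read depth. The peak value is the authors' signal, and its scale is not stated, so ratios between the libraries rest on that scale. Promoters of 6 of 6 neuronal marker genes had a peak in both libraries, as did 5 of 6 dentate, CA3 and CA1 markers (Pcp4 had none), and 1 of 3 interneuron markers (Gad2 and Lhx6 had none). Replicate 1 held a peak at 3 of 5 astrocyte, 4 of 5 oligodendrocyte and 2 of 4 microglial markers, and replicate 2 at 2, 2 and 0. The 3 endothelial and 2 liver markers had none in either. Over all protein-coding genes the shares were 60.1% in replicate 1, 57.1% in replicate 2 and 55.7% in both. These short lists therefore say little about the cell types present. Glial markers thus had more peaks in replicate 1, as the members below did, and their part in the members' counts was not tested. A promoter open in a few cells and one open a little in many cells cannot be told apart in bulk tissue.

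Few variable promoters had a peak in both libraries, and 5 of those 6 were C-type promoters. A promoter peak was present in both libraries at 6 of 57 members (10.5%, 95% Wilson interval 4.91 to 21.1%), against 55.7% of all protein-coding genes. By library, 17 members had a peak in the first library and 8 in the second, against 60.1% and 57.1% of all genes, and of these 12 and 3 were alternate or beta genes. The 6 promoters were those of all 5 C-type genes and of Pcdhga12. Intervals cover counting error only, genes are not replicates, and with 1 group of 2 libraries no test across samples was made.

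Counts are given next by cluster, without a test of the differences. In alpha, 3 of 14 promoters carried a peak in replicate 1, 2 in replicate 2 and 2 in both. In gamma the counts were 6 of 21, 4 and 4. Beta had 8 of 22 in replicate 1, 2 in replicate 2 and 0 in both, which allows a share of up to 14.9% by the Wilson interval. That interval overlapped those of alpha (4.01 to 39.9%) and gamma (7.67 to 40.0%). Split by type, a peak in both libraries was found at 5 of 5 C-type promoters (interval 56.6 to 100%), at 0 of 12 alternate alpha promoters (up to 24.2%) and at 1 of 18 alternate gamma promoters (5.56%, 0.988 to 25.8%).

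**Figure D1:**
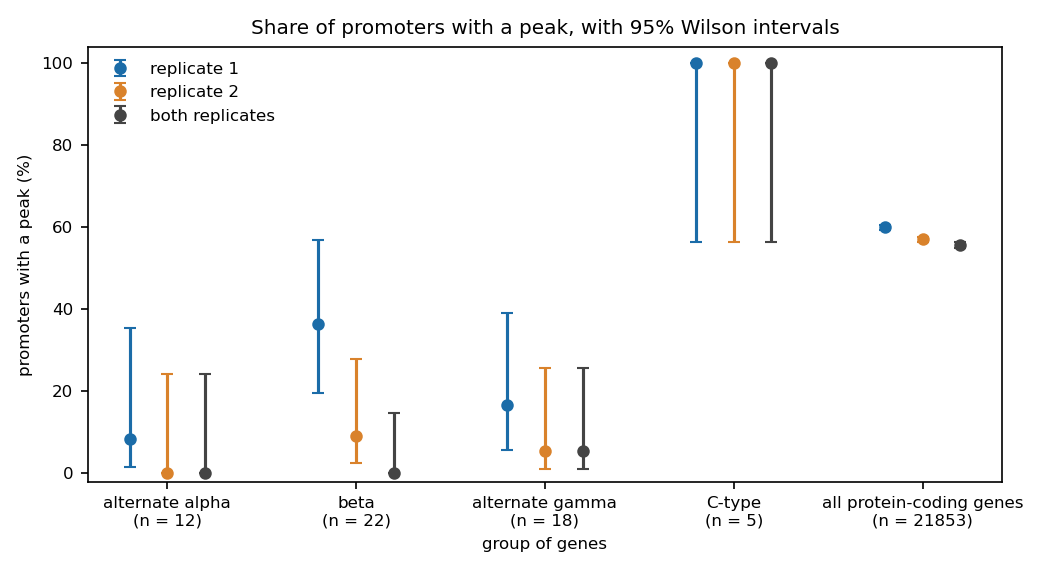
The y axis gives the percentage of promoters with a peak within 1 kb of the TSS and the x axis the group of genes. Points are shares in replicate 1 (blue), replicate 2 (orange) and both (grey), and bars are 95% Wilson intervals. C-type promoters stand at 100% and every other protocadherin group lies below the 55.7 to 60.1% of all protein-coding genes.

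Among the C-type genes, Pcdhgc3 had the most accessible promoter. Its peak value was 5.09 in replicate 1 and 3.69 in replicate 2 (4.39 ± 0.990, SD, n = 2), at the 70.9th and 66.9th percentile of the promoter values of each library. Pcdhgc3 was thus the member that stood above the median promoter of both libraries, which was 3.08 and 2.77.

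Pcdhgc5, the last variable exon of the gamma cluster, had 3.29 and 2.09 (2.69 ± 0.845, SD, n = 2), above the median promoter of replicate 1 and below that of replicate 2. Pcdhgc4, the gamma C-type gene between them, had 1.77 and 1.37 (1.57 ± 0.280, SD, n = 2). The values of the 3 gamma C-type genes did not overlap, with Pcdhgc3 highest and Pcdhgc4 lowest in each library.

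In the alpha cluster Pcdhac1 had 2.18 and 1.95 (2.07 ± 0.165, SD, n = 2), which lay close together. Pcdhac2 had 0.725 in replicate 1 and 1.34 in replicate 2 (1.03 ± 0.436, SD, n = 2), and it was the C-type gene with the higher value in replicate 2. Pcdhac2 was also the lowest C-type gene in each library, by a small margin from Pcdhgc4 in replicate 2. Across the 5 C-type genes the median value was 2.18 in replicate 1 and 1.95 in replicate 2, at the 38.1st and 34.5th percentile of all promoters with a peak.

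**Figure D2:**
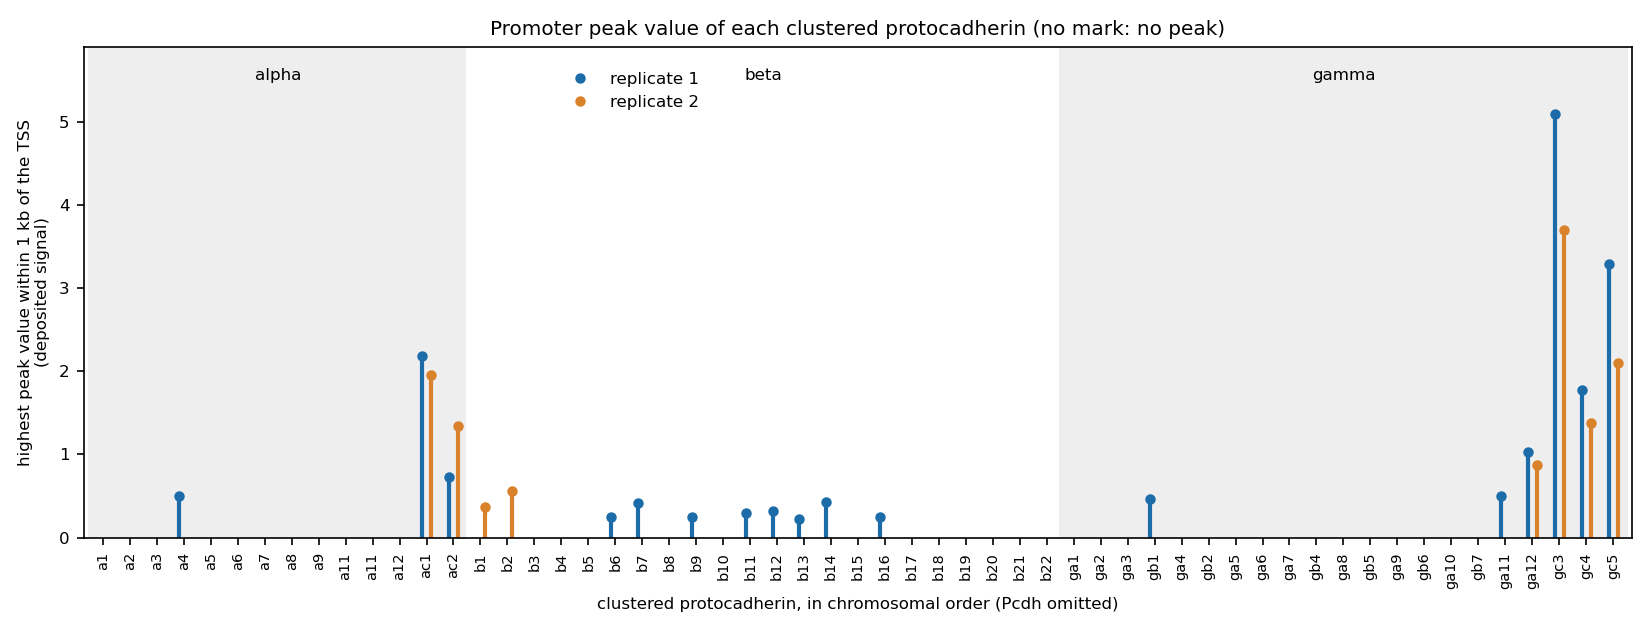
The y axis gives the highest deposited peak value within 1 kb of the TSS for each member, in chromosomal order on the x axis, for replicate 1 (blue) and replicate 2 (orange). A member with no mark had no peak. The C-type genes reach 5.09, all beta values lie at or below 0.557, and 38 members have no mark.

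Outside the C-type genes the values were low. The last alternate gamma gene, Pcdhga12, had 1.03 and 0.877 (0.956 ± 0.111, SD, n = 2), and its nearest peak began 221 bp after the TSS in replicate 1 and 293 bp after it in replicate 2. Its exon held another shared peak farther downstream (chr18:37768191-37768440), with 1.11 and 0.805. The TSS of Pcdhgb8, the excluded pseudogene just before Pcdhga12, also had a peak in both libraries, with 0.681 and 0.784.

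Of the remaining members, 11 had a promoter peak in replicate 1 alone (4.32% of all genes did) and 2 in replicate 2 alone (1.38% of all genes). They are named here after their values were seen. In replicate 1 the single alternate alpha gene was Pcdha4, with 0.504, and the alternate gamma genes were Pcdhgb1, with 0.460, and Pcdhga11, with 0.495. The beta genes of replicate 1 were Pcdhb14 (peak value 0.424), Pcdhb7 (0.416), Pcdhb12 (0.318), Pcdhb11 (0.292), Pcdhb6, Pcdhb9 and Pcdhb16 (0.248 each) and Pcdhb13 (0.221). In replicate 2 they were Pcdhb2 (0.557) and Pcdhb1 (0.371), the first beta genes in the array.

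A peak in both libraries was present at 55.7% of all genes. The 8 beta genes of replicate 1 and the 2 of replicate 2 did not overlap, and counts this small say little about these genes. Their values lay near the bottom of all promoter peaks: the beta median was 0.270 in replicate 1 and 0.464 in replicate 2, at the 0.602nd and 2.07th percentile. The beta peaks had median widths of 107 and 197 bp in the libraries, against 220 and 240 bp over the promoter peaks of all genes, and alternate alpha and gamma peaks had medians of 96.5 and 100 bp in replicate 1. In the shorter and stricter peak lists, which left 49.9% of all genes with a promoter peak in each library, the promoters of Pcdhac1, Pcdhgc3 and Pcdhgc5 kept a peak in both libraries. Pcdhac2 kept one in replicate 2, and Pcdhgc4 and Pcdhga12 kept one in replicate 1. Of the beta genes Pcdhb7 and Pcdhb14 kept theirs in replicate 1 and Pcdhb1 in replicate 2.

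No promoter peak was found in either library at 38 members. In alpha these were Pcdha1, Pcdha2, Pcdha3, Pcdha5, Pcdha6, Pcdha7, Pcdha8, Pcdha9, both Pcdha11 genes and Pcdha12. In beta they were Pcdhb3, Pcdhb4, Pcdhb5, Pcdhb8, Pcdhb10, Pcdhb15 and Pcdhb17 to Pcdhb22. In gamma they were Pcdhga1 to Pcdhga10, Pcdhgb2 and Pcdhgb4 to Pcdhgb7. Sequence repeated elsewhere in the mouse genome was checked as a limit on read placement. In alternate alpha windows 7.66 to 26.8% of the 31-base words occurred more than once, with the highest share at Pcdha7. The shares were 0 to 22.0% in beta windows (median 0.482%), 0 to 19.2% in alternate gamma windows (median 2.69%) and 0 to 0.812% in C-type windows. The sources used here do not say how reads with several matches were placed, and the part of repeated sequence in the alternate counts was not tested. Of the members whose windows held no repeated word, 10 were beta genes, 2 were alternate gamma genes and 0 were alternate alpha genes. Among these, Pcdhb1, Pcdhb2, Pcdhb13, Pcdhb14 and Pcdhgb1 had a peak in 1 library.

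The deposited lists of bases with an FDR under 0.05 gave a finer view than the peaks. C-type windows of 2001 bp held between 349 and 989 listed bases in replicate 1 and between 177 and 1288 in replicate 2, and the highest count in each was that of Pcdhac1. At least 1 listed base lay in the windows of 17 members in replicate 1, 9 in replicate 2 and 6 in both, against 61.0%, 58.3% and 56.7% of all genes. The median over all protein-coding genes was 355 and 321 bases, and 37 members had 0 in either library. Pcdhb4 had 10 listed bases in replicate 2 without a peak and was the member seen by bases alone.

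**Figure D3:**
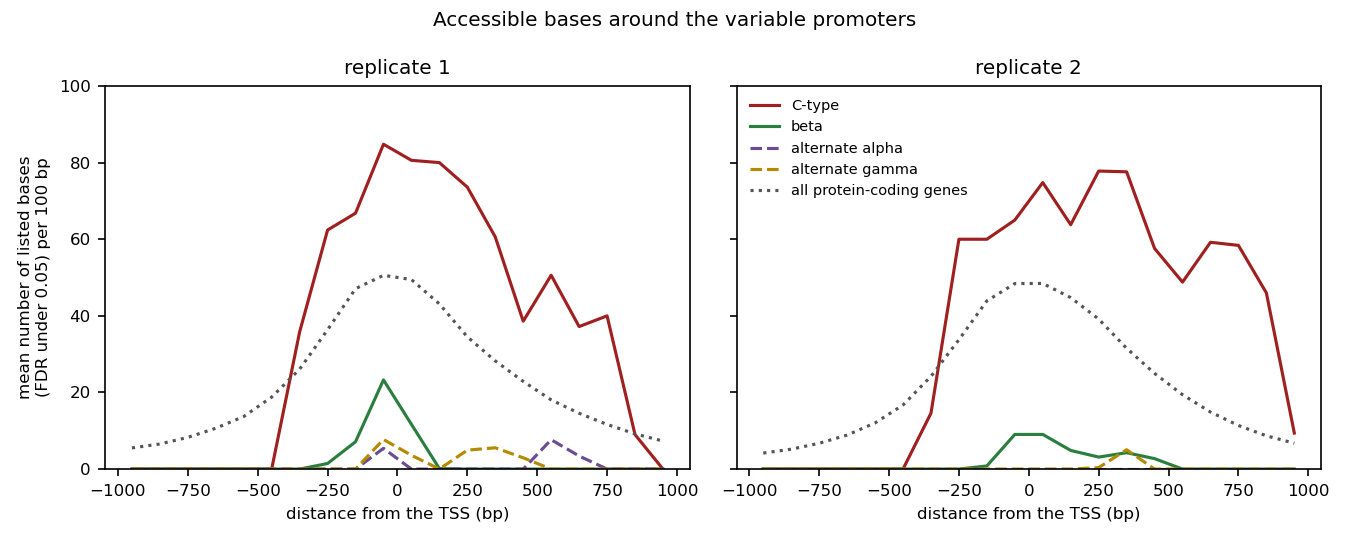
The y axis gives the mean number of listed bases (FDR under 0.05) in each 100 bp and the x axis the distance from the TSS, with 1 panel for each replicate. Lines are the C-type genes, beta genes, alternate alpha genes, alternate gamma genes and all protein-coding genes. The C-type line reaches 84.8 bases per 100 bp just before the TSS in replicate 1, and the beta line 23.3 in the same bin.

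Listed bases of the beta genes in replicate 1 were gathered just before the TSS. From 100 bp before it to the TSS the beta mean was 23.3 bases per 100 bp in replicate 1 and 9.05 in replicate 2, and in replicate 1 it was 0 from 200 bp after the TSS on. Alternate alpha promoters had a mean of 5.42 in that bin in replicate 1, which came from Pcdha4 alone, and 0 in replicate 2.

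Footprints are short stretches inside open chromatin that DNase I cut less, as a bound protein leaves. A footprint within 1 kb of the TSS was present at 10 of 57 members in replicate 1 and 5 in replicate 2, against 57.2% and 54.2% of all genes. All 5 had one in both libraries (52.6% of all genes): 2 in alpha, 0 in beta and 3 in gamma. They were Pcdhac1, Pcdhac2, Pcdhgc3, Pcdhgc5 and Pcdhga12. Of these, Pcdhac2 had 5 footprints in each library, and no footprint of one library overlapped one of the other.

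Distances of footprint centres are given from the TSS, with minus for upstream. At Pcdhac1 a footprint of 29 bp was centred at -64 bp in replicate 1 and -62 bp in replicate 2, and another covered the TSS itself. At Pcdhgc3, footprints overlapped between the libraries at -183 and -182 bp, at the TSS side of the promoter (centres at -36 and -24 bp in replicate 1 and -29 bp in replicate 2), and inside the variable exon at 621 and 629 bp. Pcdhgc5 had a shared footprint at -169 and -167 bp, and Pcdhga12 had one at 315 and 314 bp. Pcdhgc4 had 3 footprints in replicate 1 and 0 in replicate 2.

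Among the beta genes, Pcdhb7 and Pcdhb12 had footprints, in replicate 1. Pcdhb7 had one of 20 bp centred at -37 bp and one of 7 bp at -95 bp, and Pcdhb12 one of 7 bp centred at -47 bp. Pcdhga11 had footprints at -69 and -54 bp in replicate 1. Pcdha4 had footprints in replicate 1 centred at -75 and 583 bp. The beta and Pcdhga11 footprints all lay less than 100 bp upstream of the TSS, as did the shared Pcdhac1 footprint of 29 bp.

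The variable promoters share a short sequence near there. Promoter sequence was read from 250 bp before to 50 bp after the TSS in the RefSeq GRCm38.p6 assembly. The box CGCT, the core of the conserved sequence element known in these promoters, was searched on both strands. It was present in 55 of 57 members (96.5%), against 68.2% of all protein-coding promoters. From 100 to 25 bp before the TSS it was found in 27 of 30 alternate alpha and gamma promoters and in 15 of 22 beta promoters (68.2%), against 36.5% of all genes. That narrower stretch was chosen after the positions were seen. The match is a description of letters and not of binding.

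**Figure D4:**
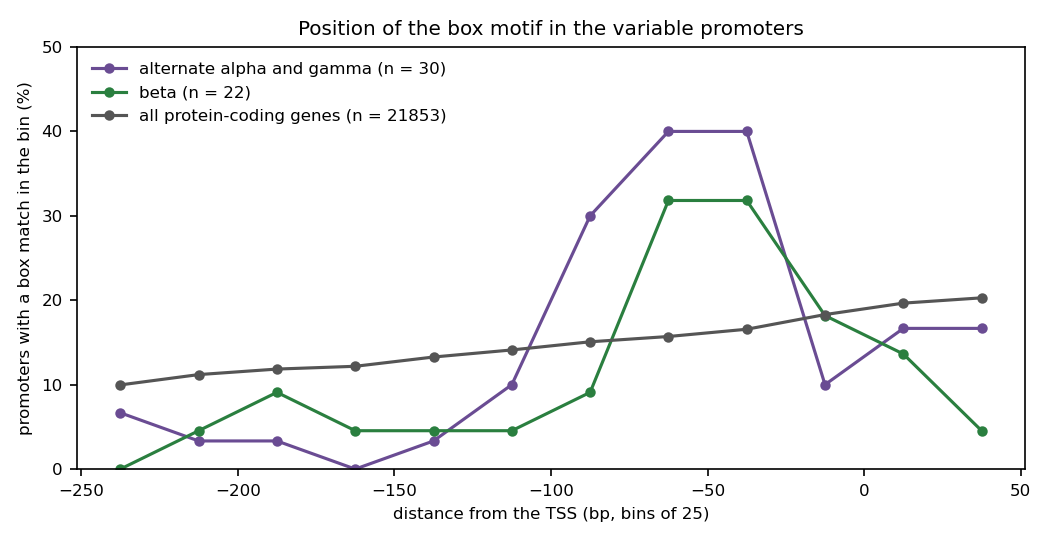
The y axis gives the percentage of promoters with a match to the box, on either strand, in each bin of 25 bp, and the x axis the distance from the TSS. Lines are alternate alpha and gamma genes, beta genes and all protein-coding genes. From 75 to 25 bp before the TSS the alternate line is at 40.0% in each bin and the beta line at 31.8%, while the line of all genes lies between 15.7% and 16.6%.

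Most of these boxes lay outside accessible sequence. Open promoters were few among the 52 alternate and beta genes: 12 by the first library and 3 by the second. The box counts below therefore largely repeat those promoter counts and say little about the box itself. Boxes were not compared with other genes within open promoters alone. Of 96 matches in alternate and beta promoters, 13 (13.5%) lay in a peak in replicate 1 and 1 (1.04%) in replicate 2, against 25103 and 25777 of the 45245 boxes in all protein-coding promoters (55.5% in replicate 1). In C-type promoters 10 and 11 of 19 did. Footprints covered a box at 3 members in replicate 1: Pcdha4 (box at -70 bp), Pcdhb7 (at -39 bp) and Pcdhac1 (at -59 bp). In replicate 2 Pcdhac1 alone had one, in the 29-bp footprint described above. A footprint covered a box in 23.4% and 19.1% of all protein-coding promoters. That contrast has the same limit, because only 10 and 5 of the 57 members carried any footprint in the 2 libraries.

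Matches to a CTCF consensus followed a different pattern in each cluster. The search used a degenerate consensus of the CTCF core on both strands. It misses any site that differs from this consensus, so a count of 0 does not show that CTCF sites are absent. Within 250 bp before and 50 bp after the TSS, 0 of 57 members held one, against 0.540% of all promoters. Variable exons of 6 of 14 alpha genes held 1 each: Pcdha1, Pcdha4, Pcdha6, Pcdha7, Pcdha8 and Pcdha12, at 465 to 587 bp after the TSS. In beta, 13 of 22 exons held 1, at 2277 to 2816 bp after the TSS (median 2393 bp), and in gamma 0 of 21 did. Within 1 kb of the TSS, where a common scale is given, 6 of 14 alpha, 0 of 22 beta and 0 of 21 gamma genes held a match, against 1.66% of all genes. Per 100 kb of variable exon there were 17.0 matches in alpha, 14.1 in beta and 0 in gamma. The rate within 1 kb of all protein-coding TSSs was 0.853 per 100 kb. No background was computed for exonic sequence as far downstream as the beta matches.

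Of the 19 exonic CTCF matches, that of Pcdha4 was the one in a peak, in replicate 1. It lay 580 bp after the TSS, and a footprint of 20 bp centred at 583 bp covered it. The Pcdha4 promoter thus had a footprint over a box at -70 bp and another over a CTCF match in the exon, both in replicate 1 and neither in replicate 2. The 13 beta matches lay in no peak and no footprint of either library.

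Members with a peak in both libraries included promoters of high and of low CpG content. Observed over expected CpG had a median of 0.657 in alpha, 0.427 in beta and 0.540 in gamma promoters, and of 0.553 over all genes. A ratio of at least 0.6 was found at 22 members, of which 2 had a peak in both libraries (9.09%, 2.53 to 27.8%), against 89.5% of all genes at or above that ratio. Those were Pcdhac1, with 0.623, and Pcdhgc3, with 0.875. Pcdhgc5 had a peak in both libraries at a CpG ratio of 0.270, Pcdhgc4 at 0.445 and Pcdhga12 at 0. Median GC content was 39.5% in alpha and beta and 42.0% in gamma, against 55.7% over all promoters, while the C-type median was 54.7%.

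Long stretches of the alternate arrays had no peak. In replicate 2 no peak lay between chr18:36802021 and chr18:37089900, a gap of 288 kb that held the TSSs of all 12 alternate alpha genes and exceeded 98.6% of the gaps between peaks in that library. The alternate alpha array itself spans 92.3 kb, so this gap reached beyond it on both sides. In replicate 1 the peaks of Pcdha4 divided that stretch into gaps of 149 and 137 kb. From the Taf7 promoter, which lies before the gamma cluster, into the alternate gamma array ran a gap of 117 kb with 17 member TSSs in replicate 2, and replicate 1 had one of 75.4 kb with 12 inside the array. These exceeded 93.9% and 95.8% of the gaps of their own library. The alternate alpha array had 2.17 peaks per 100 kb in replicate 1 and 0 in replicate 2, the alternate gamma array had 4.68 and 2.81, and the part of the gamma cluster after its alternate exons had 9.55 and 13.6, against 4.76 and 2.64 over the genome.

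Most constant exons had no accessible site. The 3 alpha constant exons and the first 2 gamma constant exons, with 250 bp on either side, had no peak, no footprint and no listed base in either library. These exons were 59 to 2712 bp long. At genome densities of 4.76 and 2.64 peaks per 100 kb, most windows this short would hold no peak. No share over other exons was computed. The third gamma constant exon (chr18:37839903-37841873), which also carries the 3′ end of the gamma transcripts, had 1 peak with 1.46 in replicate 1 and 1 with 1.21 in replicate 2 just past its end. Inside the exon replicate 1 had 0 peaks and replicate 2 had 4, the highest with 0.671. Listed bases in the exon together with 250 bp on either side numbered 89 in replicate 1 and 1641 in replicate 2. They were not counted for the exon alone. The widest of the peaks in replicate 2, at 640 bp, was also the highest.

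Introns of the alpha cluster held shared sites. Between constant exons 2 and 3, chr18:37172281-37172520 had 2.69 and 2.02 (2.36 ± 0.471, SD, n = 2), with 3 footprints in each library. In the same intron chr18:37178321-37178720 had 1.16 and 1.95 (1.55 ± 0.560, SD, n = 2) and 4 and 2 footprints. The first was higher than the second in each library, though by less in replicate 2. In gamma, a peak 437 bp before constant exon 1 (chr18:37824221-37824583) had 1.80 in replicate 1 and no peak in replicate 2.

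Between the alpha and beta clusters lay a strong shared site. The region chr18:37218221-37218460, 30.7 kb after the end of the alpha cluster, had 7.32 in replicate 1 and 2.28 in replicate 2 (4.80 ± 3.56, SD, n = 2). It thus exceeded every variable promoter of the members in replicate 1, and in replicate 2 it was below Pcdhgc3. A pair of weaker shared peaks stood just before it, at chr18:37217341-37217580 (2.44 and 0.949) and chr18:37217841-37218060 (1.34 and 0.516). All 3 were lower in replicate 2 by more than most shared peaks: the ratios of replicate 1 to replicate 2 were 3.21, 2.57 and 2.59, at the 99.5th, 98.0th and 98.0th percentile of 60487 shared peaks, whose median was 1.16.

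These peaks differed in the motifs they held. The strongest, with 7.32 in replicate 1, had a CpG ratio of 0.912, the left and right parts of RE1, the element bound by the repressor REST (searched as TTCAGCACC and GGACAG on both strands), and 3 boxes CGCT. The RE1 parts were searched separately, and their spacing was not compared with that of a whole RE1. Footprints of replicate 1 covered both RE1 parts and also the 3 boxes. No footprint of replicate 2 covered any of these, although that library had 2 footprints in the region. The first of the 3 peaks held a CTCF core match, and footprints covered it in both libraries. The RE1 parts occurred in 0.348% (left) and 22.2% (right) of all promoters, so the right one alone is common.

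The beta array had 3.08 peaks per 100 kb in replicate 1 and 1.93 in replicate 2, against 4.76 and 2.64 over the genome. The space after it was sparser, with 0.728 in each library. From the end of the beta cluster to the first gamma gene, 137 kb, the promoter of Taf7, a subunit of the general factor TFIID, was the single peak, with 5.04 and 3.47. No peak lay in the 100 kb before the alpha cluster in either library.

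The 100 kb after the gamma cluster held 12 peaks in replicate 1 and 10 in replicate 2. Closest to the cluster, chr18:37842661-37842960 had 2.07 and 1.49 (1.78 ± 0.413, SD, n = 2) and chr18:37842035-37842280 had 1.46 and 1.21 (1.33 ± 0.178, SD, n = 2), 0.937 and 0.284 kb past the last constant exon. Of the 8 peaks of replicate 1 here that replicate 2 shared, the others lay at Diaph1, a formin gene that builds actin filaments: 1 at its promoter, with 5.98 and 5.20, and 5 inside the gene. These were chosen for description after their values were seen.

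Outside the Diaph1 promoter the strongest was chr18:37852121-37852400, 10.4 kb after the gamma cluster, with 7.56 and 4.36 (5.96 ± 2.26, SD, n = 2) and 5 and 4 footprints. It was the highest of all shared sites outside promoters in the studied region in each library. Next were chr18:37880081-37880460, with 5.46 and 2.78, and chr18:37883561-37883760, with 5.43 and 3.55, which held a CTCF core match covered by footprints in both libraries. Those 3 sites exceeded the Pcdhgc3 promoter in replicate 1, and the first alone did so in replicate 2.

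**Figure D5:**
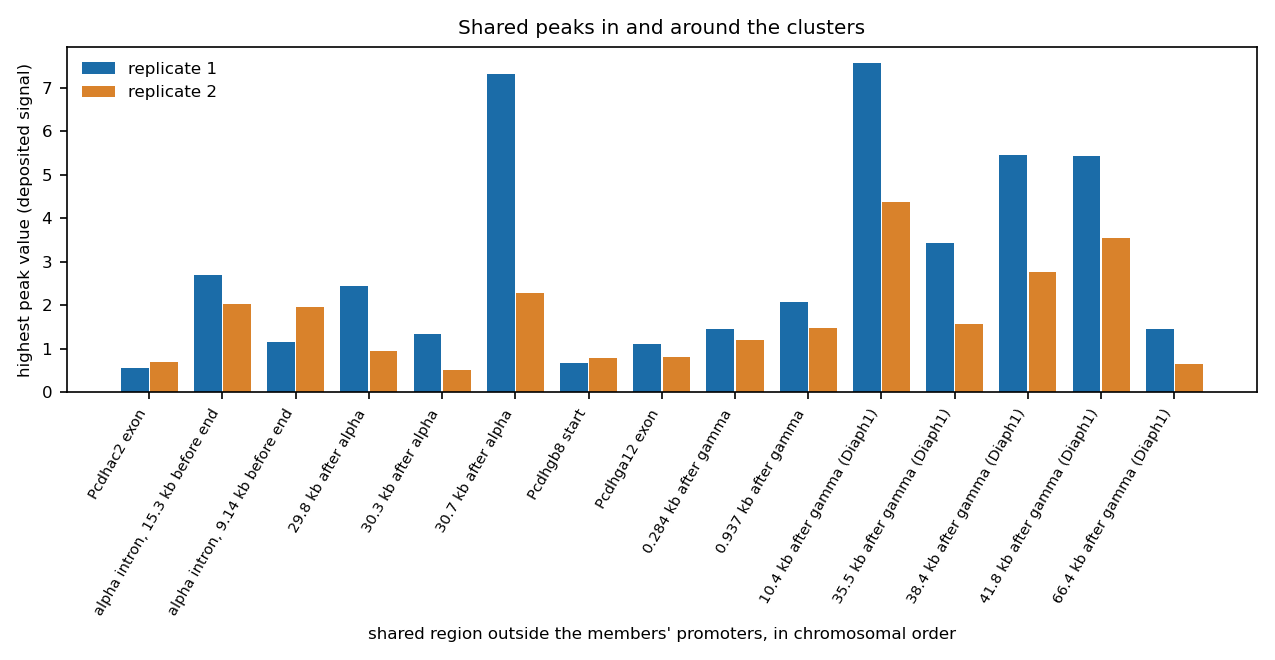
Bars give the highest deposited peak value of each shared region outside the members' promoters (1 lies at the start of Pcdhgb8), in chromosomal order, for replicate 1 (blue) and replicate 2 (orange); labels give the gene or the distance from the end of the alpha or gamma cluster. Of 15 regions 12 were higher in replicate 1, as were 65.5% of shared peaks over the genome, and the tallest bars stand 30.7 kb after alpha and 10.4 kb after gamma.

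Other genes of the pathway were accessible at most promoters. Of 12 non-clustered protocadherins, which use their own scattered promoters, 11 had a peak in replicate 1 and 10 in both libraries. The matching shares over all protein-coding promoters were 60.1% and 55.7%. At a CpG ratio of at least 0.6, the share for both libraries was 89.5%. The CpG content of the 12 was not taken into account. Among the 12, the highest were Pcdh9, with 9.67 and 6.83 (8.25 ± 2.01, SD, n = 2), and Pcdh10, with 8.41 and 5.36 (6.88 ± 2.16, SD, n = 2). Pcdh12 had none and Pcdh1 had 1.03 in replicate 1 alone. Of the 10 with a peak in both libraries, 4 had a mean above that of Pcdhgc3, the highest clustered member, and 6 had a mean below it, between 0.665 and 1.74.

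All 14 regulators of the clusters had a promoter peak in both libraries, against 55.7% of all genes. They included Stag1, a cohesin subunit, with 8.90 and 7.26 (8.08 ± 1.15, SD, n = 2), and Smc3, another, with 8.52 and 6.14 (7.33 ± 1.69, SD, n = 2). All 9 signalling partners had one too, with the highest values at Wasf1, a regulator of actin, with 9.50 and 5.63 (7.57 ± 2.73, SD, n = 2), and Adam10, a protease that sheds membrane proteins, with 8.36 and 4.95 (6.65 ± 2.41, SD, n = 2). Among the regulators the lowest values were those of Dnmt3b (0.433 and 0.650) and Rest (0.672 and 0.671), named after the values were seen. Of all genes with a CpG ratio of at least 0.6, 89.5% had a peak in both libraries. The CpG content of the regulators and signalling partners was not taken into account. These lists are small and no test was made of them.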

How the data were processed

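DNase-seq peaks, footprints and base lists from 2 libraries of 1 group were used, all on mm10 per the labels. Peak signal values and footprints were deposited by the authors for each library. The authors' base lists give FDR values (read as q-values) under 0.05, and the p-value column of their footprint lists, which held 0.01 throughout, was not used. The sources used here do not name the aligner, the callers or the treatment of CAST/EiJ alleles.

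Annotation was GENCODE M21. A peak counted where it overlapped a window by at least 1 bp, and a gene's value was its highest peak. "Shared" means overlapping peaks in both libraries. Constant exons are exons common to at least 5 members. Shares carry 95% Wilson intervals, and no test was made. Overlap counting was tested on simulated data. All C-type members, other members with a peak in both libraries, members with none, and the 5 intergenic or intronic sites with the highest mean percentile were named by rule; in lists of related genes, those without a peak and the 2 with the highest means. Members and lists were chosen with earlier results of these data known. Alternatives were the shorter lists, other windows, TSSs, overlaps, margins, flanks and an FDR of 0.01, and each library alone. Python 3.11.15, NumPy 2.4.6, pandas 2.3.3, SciPy 1.17.1 and matplotlib 3.10.9 were used.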

Additional observations from a re-analysis of the deposited data

How the results depend on the processing

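With the shorter peak lists, promoters with a peak in both libraries numbered 1 in alpha and 2 in gamma, the median peak value rose to 1.92 in alpha and 2.71 in gamma, and shared constant exon and intergenic peaks numbered 0 and 1. As percentiles the medians were 19.8 in alpha, 1.34 in beta and 27.6 in gamma. A window of 2.5 kb gave 1 beta promoter in both libraries. Without the 250-bp margin no constant exon had a shared peak. Flanks of 200 kb gave 6 shared intergenic peaks, and leaving out the read-through models Gm42416, Gm37013 and Gm37388, which span the clusters, gave 5 in place of 2 (chosen after seeing the data). Taking each library alone gave 2 to 8 beta promoters, 0 to 2 beta and 3 to 5 gamma promoters with footprints, and 4 to 6 intronic peaks. The alpha median was 0.725 in replicate 1 alone and 1.65 in replicate 2 alone. Of 63 alternatives 45 stayed within 1.5 times the count or 1 SD between the libraries, limits that are wide with 2 libraries. The cause of these shifts was not tested. No paired analysis was possible because there is 1 group.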
